A study of Homo sapiens with 2 samples.

Results

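The 9 genes described here encode the urokinase system and a set of proteins that control proteolysis of the extracellular matrix: PLAU, PLAUR, PLAT, SERPINE2, SERPINB5, MMP14, TIMP1, TIMP2 and TIMP3. They were taken by symbol from a table of 50867 gene rows, and each symbol had 1 row. Both libraries of the table were made from HCT116, a long-used colorectal carcinoma cell line of human origin, treated with control siRNA or with one that targets PHF5A, a subunit of the splicing factor SF3b. There was 1 library of total RNA per group, with a total of 26552789 counts (control) and 25897412 counts (knockdown), and the study asked how the transcriptome of such cells depends on PHF5A. The labels used here state neither the time after transfection nor the siRNA sequence. Without replicates, the spread between cultures is unknown, and no p-value can be computed. The 9 genes were selected on their FPKM and counts in these 2 libraries, so their levels and ratios are a description.

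Urokinase, the product of PLAU, is a secreted serine protease that cleaves plasminogen to plasmin, a broad protease that degrades fibrin and matrix proteins and activates other proteases. It acts at the cell surface, bound to its receptor PLAUR, and serpins block it there. Membrane-bound MMP14 cleaves collagen directly and activates pro-MMP2 in a complex that needs TIMP2, while the TIMPs as a family inhibit the matrix metalloproteinases. Tumour cells of the colon and the stroma around them are both known sources of these proteins.

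PLAU was lower in the knockdown library by more than any other of the 9 genes, its receptor was lower by nearly as much as the 2-fold line, and TIMP1 alone was higher. All 9 genes reached 1 FPKM (fragments per kilobase, relative to library depth) in whichever library was higher. By size alone, on the log2 scale with 1 added to each FPKM, 2 of the 9 (PLAU and TIMP2) lay at or beyond 2-fold lower, and 0 at or beyond 2-fold higher. Of all 8957 genes that met the same minimum, 6.2% were at least 2-fold lower and 2.53% at least 2-fold higher, 8.73% in either direction. With the ratios centred on their median these calls were 358 lower and 345 higher, against 555 and 227 without centring. Since the 9 were selected on this contrast, nothing is read from their share. The median log2 ratio of the 9 was -0.77, and that of all 8957 genes was -0.15. TIMP2 lay just inside the 2-fold line (-1.14) and PLAUR just outside it (-0.89). The call of TIMP2 depended on the scaling, since with the ratios centred on the median of all genes it was -0.99.

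Stretches upstream of RefSeq start sites (GRCh38.p14) are shown for PLAU, which had the largest difference, for its receptor PLAUR, and for TIMP1 and TIMP3, 2 inhibitors whose ratios lay on opposite sides of the median. Capitals mark matches to TGANTCA or to GGGCGG, the core of an Sp1 site, searched on both strands (CCGCCC is GGGCGG on the other strand). TGANTCA is looser than the AP-1 consensus, which has C or G as its middle base. The PLAU and PLAUR windows lay within exons annotated by GENCODE, so 30 bases of each are given. The others run up to the first annotated exon.
PLAU, chr10:73911061-73911090, plus strand: gagccGGGCGGgagagggagGGGCGGcgcc
PLAUR, chr19:43670338-43670367, minus strand: atcacaactccaTGAGTCAgggccgagcca
TIMP1, chrX:47582186-47582312, plus strand: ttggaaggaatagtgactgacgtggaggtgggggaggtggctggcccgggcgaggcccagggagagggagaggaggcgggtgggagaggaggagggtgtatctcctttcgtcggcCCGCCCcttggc
TIMP3, chr22:32801455-32801700, plus strand: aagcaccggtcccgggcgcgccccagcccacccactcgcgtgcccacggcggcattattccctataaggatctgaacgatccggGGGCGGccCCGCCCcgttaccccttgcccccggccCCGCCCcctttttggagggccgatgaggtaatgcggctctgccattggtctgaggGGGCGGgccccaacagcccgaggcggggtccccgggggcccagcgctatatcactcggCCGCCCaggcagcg

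RefSeq promoter entries matched 7 of the 9 genes; PLAT and TIMP2 had no entry. In the 250 bases before the start, TGANTCA was found at PLAUR, with its first base 186 bases before the start, and at SERPINB5, 146 bases before it. The match at PLAUR was TGAGTCA. The one at SERPINB5 was TGAATCA, whose middle base is outside the AP-1 consensus. Of all 35116 entries, 6.57% held TGANTCA, with any middle base, in a window of that length. PLAUR and SERPINB5 differed in their ratios of counts scaled to the library total (CPM), at 0.517 and 0.799. Whether these matches bear on the ratios was not tested. GGGCGG was found 3 times in the window of the PLAU start at 73911132, 5 times at TIMP3 and 2 times at TIMP1. The other PLAU window, of the start at 73910610, held none. MMP14, SERPINB5 and SERPINE2 also held it, so that 6 of the 7 genes with an entry did and PLAUR did not. Of all entries, 42.6% held GGGCGG. That share is by entry and not by gene, and PLAU and SERPINE2 had 2 entries each, so the figures are not alike. The relation of GGGCGG to the ratios was not tested. TATAAA, the TATA box, was found in none of the 9 windows of these genes and in 10.7% of all entries. These matches describe the letters in the windows and not binding.

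Among the activators, PLAU (ENSG00000122861, chromosome 10, 73909177 to 73917497, GRCh38) was counted 7991 times in the control and 1834 times after knockdown. Its level was 64.9 FPKM and 15.3 FPKM, and its log2 ratio was -2.02. Scaled to the library total, PLAU was lower by 4.25-fold after knockdown, with a 95% exact interval of 4.04 to 4.47. Intervals here cover counting error alone and say nothing about variation between cultures. By FPKM it was the 405th gene of the table in the control library and the 1522nd after knockdown. PHF5A itself, the gene targeted, had 367 and 91 counts and was 3.93-fold lower (3.12 to 5.0), a ratio close to that of PLAU.

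PLAT (ENSG00000104368, chromosome 8, 42175233 to 42207724) encodes tissue plasminogen activator, which cleaves plasminogen mainly on the surface of fibrin. It stood far below PLAU in both libraries, with 381 and 235 counts, 1.37 and 0.868 FPKM. PLAT was lower by 1.58-fold after knockdown (1.34 to 1.87). The level of PLAU per length was 47.3 times that of PLAT in the control library and 17.6 times after knockdown, so urokinase was the more abundant activator transcript in both.

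The urokinase receptor gene PLAUR (ENSG00000011422, chromosome 19, 43646095 to 43670547) encodes a protein anchored to the membrane by a lipid. It had 4613 and 2324 counts, 20.2 and 10.5 FPKM, and was 1.94-fold lower (1.84 to 2.04). Both the enzyme and its receptor were thus lower in the knockdown library, but not in proportion. The ratio of PLAU to PLAUR, taken within each library so that library scaling cancels, was 3.21 in the control library and 1.46 after knockdown, 2.20-fold lower (2.04 to 2.36).

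Of the serpins, SERPINE2 (ENSG00000135919, chromosome 2, 223975112 to 224039319) encodes protease nexin-1, an inhibitor of thrombin, urokinase and tissue plasminogen activator. It had 711 and 402 counts, 2.24 and 1.30 FPKM, and was 1.73-fold lower (1.52 to 1.95). PLAU stood at 29.03 times the level of SERPINE2 in the control library and at 11.8 times after knockdown. The ratio of PLAUR to SERPINE2, by contrast, was 9.05 and 8.06, values whose ratio had an interval (0.781 to 1.02) that included 1.

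SERPINB5 (ENSG00000206075, chromosome 18, 63476761 to 63505085) encodes maspin, a serpin that does not inhibit proteases in the usual way. It had 154 and 120 counts, 1.23 and 0.984 FPKM. Its CPM ratio of 0.799 had an interval of 0.624 to 1.02, so a difference between these libraries was not detectable at this depth. It was the one gene of the 9 whose interval included 1.

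MMP14 (ENSG00000157227, chromosome 14, 22836557 to 22849027), the membrane metalloproteinase, had 842 and 416 counts, 5.27 and 2.67 FPKM. MMP14 was lower by 1.97-fold after knockdown (1.75 to 2.23). PLAUR and MMP14, which both act at the cell surface, kept nearly the same proportion, with a PLAUR to MMP14 ratio of 3.84 and 3.92 (change 1.02, interval 0.898 to 1.16).

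The inhibitors of metalloproteinases went apart. TIMP1 (ENSG00000102265, chromosome X, 47582313 to 47586789), a secreted inhibitor of most soluble MMPs that acts poorly on MMP14, had 9937 and 13450 counts. Its level was 166 FPKM in the control library and 229.7 FPKM after knockdown, and it was 1.39-fold higher (1.35 to 1.42). With a log2 ratio of 0.47 it was the highest of the 9, although after rescaling each library to an equal sum over genes (TPM) the ratio was 0.05. TIMP1 also had the highest level of the 9 in both libraries.

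TIMP2 (ENSG00000035862, chromosome 17, 78852977 to 78925387), the inhibitor that also takes part in activation of pro-MMP2 by MMP14, had 9976 and 4297 counts. Its level was 39.8 and 17.6 FPKM, and it was 2.26-fold lower (2.18 to 2.35). TIMP3 (ENSG00000100234, chromosome 22, 32801701 to 32863043), which binds to the matrix and also inhibits ADAM proteases, had 371 and 147 counts, 3.04 and 1.23 FPKM. TIMP3 was 2.46-fold lower by CPM (2.03 to 3.0), but its log2 ratio was -0.85 because adding 1 to each FPKM narrows the ratio of a low gene.

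The make-up of the TIMP transcripts differed between the libraries. TIMP1 made up 79.4% of the summed FPKM of the 3 TIMPs in the control library and 92.4% after knockdown, TIMP2 19.1% and 7.07%, and TIMP3 1.46% and 0.496%. The ratio of TIMP1 to TIMP2 was 4.16 and 13.1, 3.14-fold higher in the knockdown library (3.01 to 3.28). TIMP2 and MMP14 stayed closer in proportion, at 7.55 and 6.58, a change of 0.872 (0.771 to 0.986). The ratio of PLAU to TIMP1 differed most among the 17 pairs computed, at 0.392 and 0.0665, 5.90-fold lower (5.57 to 6.24). These ratios within a library do not depend on the library total, which matters here because 5 small noncoding RNAs (7SL from 2 genes, 7SK and the RNAs of RNase P and RNase MRP) took 10.5% of all counts in the control library and 16.3% after knockdown.

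**Figure D1:**
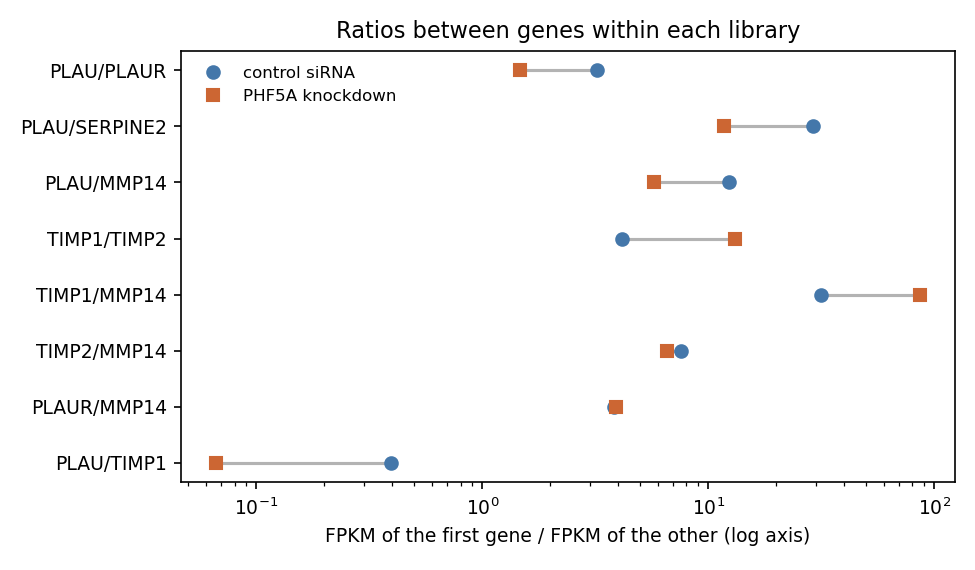
FPKM ratio of 8 gene pairs within the control library (circles) and within the knockdown library (squares), on a log axis, 1 library each. Ratios with PLAU on top lie lower in the knockdown library, those with TIMP1 on top lie higher, and PLAUR to MMP14 is at 3.84 and 3.92.

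The order of the levels per length in the control library was TIMP1, PLAU, TIMP2, PLAUR, MMP14, TIMP3, SERPINE2, PLAT and SERPINB5. PLAT (1.24 to 1.52 FPKM by its 95% exact Poisson interval) and SERPINB5 (1.04 to 1.44) were the neighbours whose counting intervals overlapped. In the knockdown library TIMP2 (17.0 to 18.1) stood above PLAU (14.6 to 16.0). At the lower end SERPINE2 (1.17 to 1.43) and TIMP3 (1.04 to 1.45) overlapped, as did TIMP3 with SERPINB5 (0.816 to 1.18), and SERPINB5 with PLAT (0.760 to 0.986). PLAU was thus below TIMP2 only in the knockdown library, while TIMP1 had the highest level in both.

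**Figure D2:**
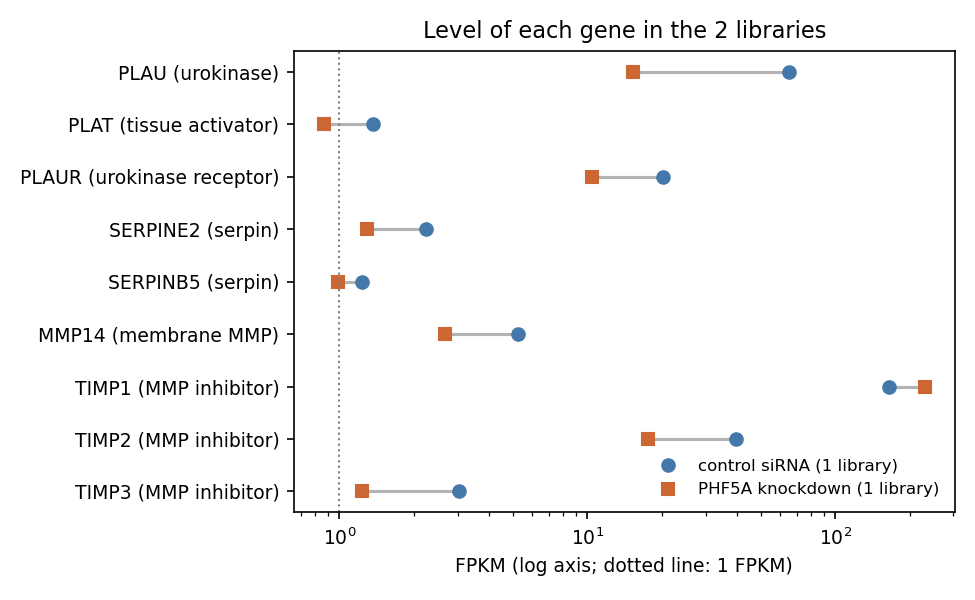
FPKM of each of the 9 genes in the control library (circles) and in the knockdown library (squares), on a log axis, 1 library each. PLAU spans 64.9 to 15.3 FPKM, and TIMP1 is the one gene whose knockdown value lies to the right of its control value.

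**Figure D3:**
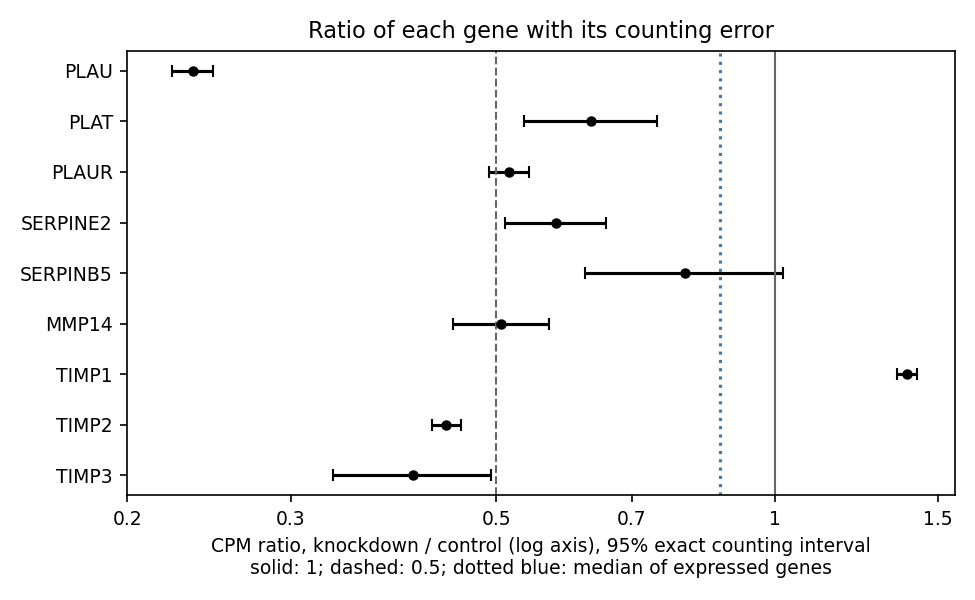
CPM ratio of knockdown to control for each of the 9 genes on a log axis, with 95% exact counting intervals. The dotted line is the median ratio of the 8957 expressed genes (0.872), and the interval of SERPINB5 is the one that reaches 1.

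Entries that overlap the 9 genes held few counts. Reads of a gene and of an entry on the other strand cannot be told apart if the counting ignored strand, and no source used here states the strand setting. C10orf55, antisense to PLAU, had 11 and 0 counts. TIMP1 lies inside SYN1, which runs on the other strand and had 32 and 92 counts, at most 0.684% of those of TIMP1. TIMP3 lies inside SYN3, on the other strand, with 0 counts in both libraries. CEP295NL within TIMP2 had 12 and 17. With the overlapping entry added, the CPM ratios of TIMP1 (1.39) and PLAU (0.235) were the same to 3 digits.

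Among the partners of plasminogen activation that reached 1 FPKM, ANXA2 was the gene past the 2-fold line on the scale of FPKM + 1. Of 27 partners other than the 9 genes, 14 reached 1 FPKM, 1 was at least 2-fold lower and 0 at least 2-fold higher. Their median log2 ratio was -0.44, and 11 of the 14 lay below the median of all expressed genes. ANXA2, which with S100A10 forms a plasminogen-binding complex, had 87.0 and 37.8 FPKM (2.30-fold lower, 2.25 to 2.35). S100A10 had 113.9 and 66.1 FPKM (1.72-fold lower, 1.65 to 1.79). ENO1, a glycolytic enzyme that also binds plasminogen at the cell surface, had 1001.2 and 539.8 FPKM, 1.85-fold lower. The plasminogen receptor gene PLGRKT had 41 and 33 counts and was under 1 FPKM, with a ratio whose interval included 1. ANXA2 and ENO1 have processed copies; with the counts of entries named as such copies added, the CPM ratios were 0.452 and 0.539, against 0.435 and 0.539 without.

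SERPINB2, a clade B serpin that inhibits urokinase, had 0 counts in both libraries, and PLG, the plasminogen gene made mainly in liver, had 47 and 57 counts (0.171 and 0.213 FPKM). The substrate of urokinase was therefore under 1 FPKM in both. LRP1, the endocytic receptor that clears protease and inhibitor complexes, had 2.02 and 1.18 FPKM (1.71-fold lower, 1.57 to 1.87). VTN, the vitronectin gene, had 0.960 and 0.873 FPKM. PROCR, the protein C receptor, had 9.03 and 4.02 FPKM with a log2 ratio just under the 2-fold line in size (-1.0). It is uncertain because MMP24-AS1, on the other strand, overlaps it with 507 and 878 counts, and the CPM ratio of their sum was 1.10. A2M, a broad protease inhibitor of plasma, had 1.14 and 0.350 FPKM. It was 3.24-fold lower by CPM (2.53 to 4.20), but its log2 ratio of FPKM + 1 was -0.66. Of the partners under 1 FPKM, SERPINA5 had 166 and 20 counts (8.10-fold lower, 5.08 to 13.6) and SERPINI1 0 and 60.

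In the matrix metalloproteinase family, MMP14 had the lowest log2 ratio of the genes that reached 1 FPKM. Of the other 22 members 4 reached 1 FPKM, of which 0 were at least 2-fold lower and 1 (MMP24) at least 2-fold higher on the scale of FPKM + 1. Their median log2 ratio was 0.32. MMP15, the membrane enzyme with the highest level of the family, had 33.8 and 29.5 FPKM (log2 ratio -0.19), and MMP17 had 2.57 and 2.70. MMP11, a secreted enzyme, had 0.879 and 1.83 FPKM, 2.08-fold higher by CPM (1.77 to 2.46) but with a log2 ratio of FPKM + 1 of 0.59. MMP24 had 43 and 375 counts, 0.367 and 3.28 FPKM, 8.94-fold higher by CPM (6.51 to 12.6). It is uncertain because MMP24-AS1, on the other strand, had 507 and 878 counts, and their sum was 2.34-fold higher. The gelatinases were scarce: MMP9 had 1 and 3 counts, and MMP2, the enzyme MMP14 activates, had 35 and 0, at least 11.4-fold lower when 3 counts are taken as its floor after knockdown.

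Of the other regulators of metalloproteinases, those that reached 1 FPKM were within 2-fold. TIMP4, the TIMP not among the 9, had 31 and 0 counts and was under 1 FPKM. It was 10.1-fold lower on the same floor, with an exact interval that began at 7.72-fold lower. RECK, a membrane inhibitor of MMPs, had 28 and 37 counts. BSG, which encodes an inducer of MMPs, had 154 and 208 FPKM, 1.35-fold higher (1.33 to 1.37), next to TIMP1 in its ratio. The log2 ratio of BSG was 0.43, and 0.01 with TPM rescaling. The tetraspanins CD151 (31.2 and 36.0 FPKM), CD63 (40.5 and 40.4) and CD82 (3.12 and 2.57) had log2 ratios between -0.21 and 0.20, and CD44 had 4.89 and 3.63 FPKM. Over the 5 expressed genes of this list outside the 9, 0 were past 2-fold in either direction, and the median log2 ratio was -0.01.

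The list of membrane serine proteases and Kunitz inhibitors also held related genes of other classes, such as HTRA2 and SPINK5. In it 7 of 24 reached 1 FPKM, with 1 at least 2-fold lower and 0 higher. The gene at least 2-fold lower was FURIN, whose product cuts the propeptide from MMP14, with 43.8 and 16.4 FPKM (2.68-fold lower, 2.56 to 2.80). ST14, the matriptase gene, had 93.0 and 113.6 FPKM. Its inhibitor SPINT1 had 63.9 and 92.8 FPKM (1.45-fold higher, 1.42 to 1.49), and SPINT2, which inhibits matriptase and hepatocyte growth factor activator, had 25.03 and 17.0. PRSS8, which encodes prostasin, had 16.5 and 11.9 FPKM. The log2 ratio of ST14 was 0.29, and -0.13 with TPM rescaling, and that of SPINT1 was 0.53, and 0.12 with it.

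The families of the serpins and of the receptor did not move as one. Of 12 clade B serpins besides SERPINB5, 3 reached 1 FPKM and 7 had no count in either library. SERPINB9, an inhibitor of granzyme B, had 11.1 and 4.50 FPKM (2.47-fold lower, 2.22 to 2.76). Its log2 ratio of -1.14 became -0.99 with median centring or upper-quartile scaling, under the 2-fold line. The counting intervals of the ratios of SERPINB1 (4.15 and 4.16 FPKM) and SERPINB6 (5.06 and 5.14) included 1. Among genes of the Ly6 family, to which PLAUR belongs, LY6E had 73.7 and 142.9 FPKM, 1.94-fold higher (1.90 to 1.97). Its log2 ratio of 0.95 passed the 2-fold line with median centring (1.09), upper-quartile scaling (1.12) and without the 5 small RNAs (1.04), and was 0.53 with TPM. LYPD3 had 5.37 and 3.37 FPKM and CD59, a complement inhibitor, 4.70 and 3.77. Of the ADAM and ADAMTS proteases, 7 of 27 reached 1 FPKM, and 0 of those 7 were past 2-fold. ADAM15 had the largest ratio among the 7, with 8.81 and 15.5 FPKM, and ADAMTS7 the lowest, with 2.20 and 1.28. Under 1 FPKM the genes went apart. ADAMTS9 had 194 and 0 counts, ADAM23 120 and 0, ADAMTS12 73 and 0 and ADAMTS1 59 and 1. ADAM10 had 375 and 288 counts and ADAMTS16 128 and 148.

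Among genes of matrix proteins that these enzymes cut, type IV collagen chains had the lowest log2 ratios of FPKM + 1. Of 16 such genes 13 reached 1 FPKM, with 4 at least 2-fold lower, 0 higher and a median log2 ratio of -0.74. Of the 4, LAMC1, a laminin chain, had 9.02 and 3.73 FPKM (2.42-fold lower, 2.24 to 2.61). The other 3 were nearly absent from the knockdown library: COL4A1 with 544 and 3 counts, COL4A2 with 840 and 5, and NID1 with 199 and 1. By CPM, NID1 was lowest (194-fold lower, 34.4 to 7704). Its interval overlapped those of COL4A1 (60.2 to 860) and COL4A2 (69.9 to 506). With median centring the log2 ratios of LAMC1 (-0.934) and NID1 (-0.997) fell short of 2-fold. SDC1, a cell surface proteoglycan, had 5.53 and 2.79 FPKM. FN1 was 3.58-fold lower by CPM (3.14 to 4.09) with a log2 ratio of FPKM + 1 of -0.76, while LAMB3 had 32.8 and 36.5 FPKM.

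**Figure D4:**
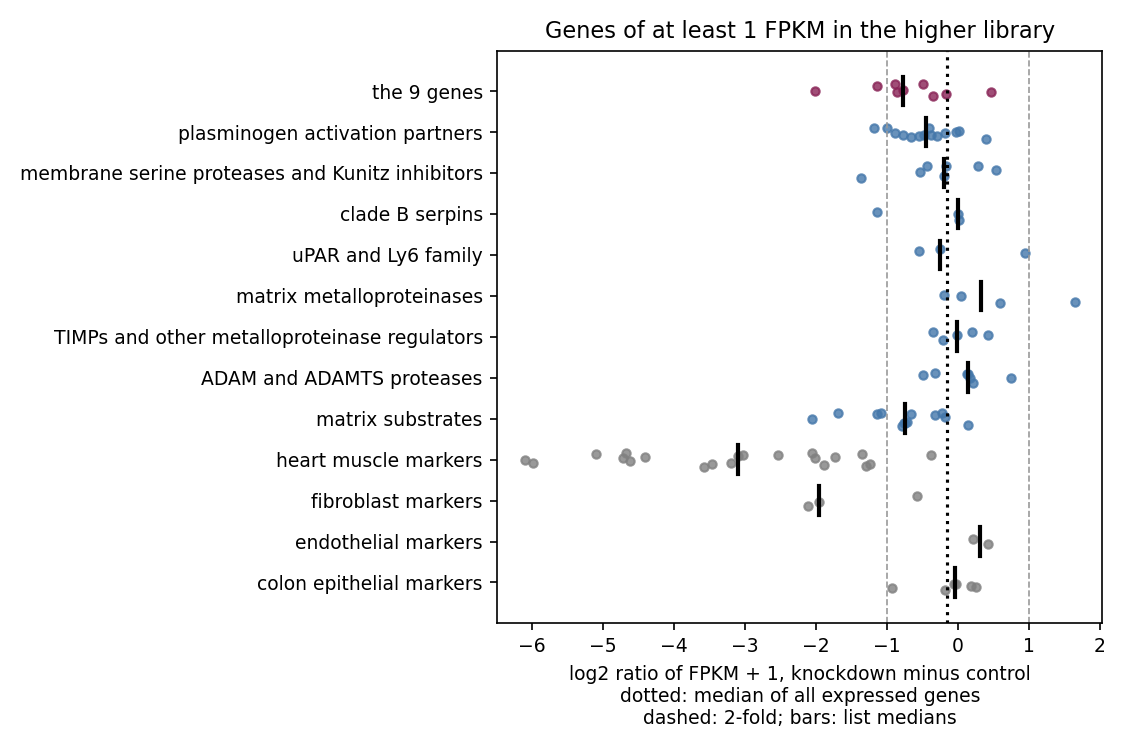
Log2 ratio of FPKM + 1 for each gene that reached 1 FPKM (points), by gene list, with list medians (bars); lists of partners leave out the 9 genes. The 9 genes and the matrix substrates have medians of -0.77 and -0.74, and the heart muscle markers lie farthest to the left.

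Marker genes of another tissue differed between the libraries and have to be read beside these values. The 22 heart muscle markers summed to 103012 counts (0.388%) in the control library and 494 (0.00191%) after knockdown, and 20 of the 21 expressed ones were at least 2-fold lower. Of these, 17 were at least 20-fold lower by CPM, as were 3 of the matrix substrates and 0 of the 9 genes. Among all 8957 expressed genes 126 were, so 0 of 9 is near that share and nothing is read from it. The 11 fibroblast markers summed to 3525 and 894 counts. Of the 3 expressed ones, COL3A1 (959 and 31) and SPARC (621 and 16) were at least 20-fold lower, and COL1A1 (1362 and 786) was 1.69-fold lower. Below 1 FPKM, COL1A2 had 352 and 7 counts, PDGFRA 93 and 2, LUM 60 and 0, POSTN 15 and 0 and THY1 11 and 1, while PDGFRB had 44 and 42, DCN 8 and 9 and FAP 0 in both. The 4 smooth muscle markers summed to 1587 and 328 counts, with TAGLN 9.10-fold, CNN1 35.8-fold and ACTA2 1.69-fold lower. The 9 macrophage markers summed to 687 and 421 counts, of which CD68 had 518 and 361 and CSF1R 132 and 25, with AIF1 at 0. The 10 endothelial markers summed to 6114 and 6776 counts, of which EGFL7 had 5477 and 6183 and ESAM 283 and 423. VWF had 284 and 141 counts (1.96-fold lower, 1.60 to 2.42), TIE1 25 and 16, KDR 18 and 7, TEK 13 and 2 and CDH5 10 and 0, while PECAM1 had 4 and 4 and CLDN5 and EMCN were at 0. The 9 genes kept 120 to 13450 counts in the knockdown library. What part transcripts from other cells had in their control levels was not tested. In bulk RNA, fewer cells of a type and less RNA per cell cannot be told apart. The labelled cell type was checked on 11 colon epithelial markers: KRT8, KRT18 and KRT19 were at 369.7 to 1046.3 FPKM in both libraries, EPCAM had 3.62 and 4.52 and CDH1 2.38 and 2.25. CDX2, an intestinal transcription factor, had 822 and 367 counts, 6.90 and 3.16 FPKM, and was 2.18-fold lower by CPM (1.93 to 2.48) with a log2 ratio of -0.93. KRT20 had 0 counts in both libraries, and VIL1, CEACAM5, LGALS4 and GPA33 had 0 to 13.

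By terms in the authors' deposited annotation, PLAU, PLAUR and PLAT shared the pathway of complement and coagulation cascades, in which 18 of 74 genes reached 1 FPKM, 1 (PLAU) was at least 2-fold lower and the median log2 ratio was -0.22. Fibrinolysis, shared by the same 3, had 12 expressed genes, of which 2 (PLAU and ANXA2) were at least 2-fold lower, with a median of -0.45. The term for inhibitors of metalloendopeptidases held the 3 TIMPs and 1 other expressed gene. Extracellular matrix disassembly, with TIMP1, TIMP2 and MMP14, had 56 expressed genes, 12 at least 2-fold lower and 0 higher. Of those 56 genes, 6 were at least 20-fold lower by CPM, beside 126 of all 8957 expressed genes. The genes described here, which were selected on this contrast, were not removed from the terms of this annotation. PLAU thus counts among the lower genes of the cascades and of fibrinolysis, and TIMP2 among those of extracellular matrix disassembly. For that reason nothing is read from the shares lower in these terms beside the 6.2% of all expressed genes. Plasminogen activation, a term that holds PLAT and SERPINE2, had 11 expressed genes and 0 at least 2-fold lower. The term for serine-type endopeptidase inhibitors, with SERPINB5 and SERPINE2, had 20 expressed genes, 2 at least 2-fold lower and a median log2 ratio of -0.15, the same as that of all genes.

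The protein-coding genes nearest to PLAU in both libraries, by distance in log2(FPKM + 1) over the 2 libraries, were CDC25B (61.5 and 18.3 FPKM, distance 0.26), WDR34 (54.0 and 18.4), RANGAP1 (51.4 and 17.5), SREBF2 (56.5 and 19.6) and PXN (51.9 and 18.2 FPKM, distance 0.40). Each had a log2 ratio above that of PLAU, between -1.69 and -1.46. With 2 libraries, likeness here means a similar level in each of them and nothing more.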

How the data were processed

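RNA of 1 control and 1 PHF5A knockdown sample of HCT116 cells was sequenced; per the labels' protocols, the library kit was a TruSeq kit that keeps strand. HISAT2 2.0.4, Cuffdiff and hg38 (GRCh38) are named in the submitters' processing notes; no source used here states the annotation release, the strand setting or how multi-mapping reads were handled. The deposited table holds a whole-number count and an FPKM per gene and library, per the file headers. The authors' FPKM values equal the deposited count scaled by the library total and by a gene length shared by both libraries: implied lengths differed by at most 0.0241% between libraries over 18898 genes. Of 50869 lines, 2 that hold 1 broken entry were left out. Gene type, strand and exons came from GENCODE 29 by identifier (50110 of 50867 rows matched).

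The main measure was the log2 ratio of FPKM + 1, for genes whose higher value was at least 1 FPKM, and a call at 2-fold by size. CPM ratios carry 95% exact conditional binomial (Clopper-Pearson) intervals, levels exact Poisson intervals, and changes of within-library ratios odds-ratio intervals by the normal approximation on the log scale (not exact), all for counting error only, since reads are not independent molecules. A library at 0 was given a floor of 3 counts for the fold printed, which leaves out the counting error of the other library. The limit of the exact interval is given beside it.

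The 9 genes, the 8 partner lists, the 6 marker lists and the alternatives were chosen with earlier results of these data known. Named are the 9 genes, PHF5A, per partner list up to 5 expressed genes with the largest absolute log2 ratio, 11 partners with a direct role whatever their value, overlapping entries and the 5 protein-coding genes nearest to PLAU, except an item that is not reported here; other genes were named after their values were seen. Alternatives were other pseudocounts, filters, scalings, thresholds and CPM. The procedure was tested on simulated data. Scripts ran in Python 3.11.15 with scipy 1.17.1 (intervals), pandas 2.3.3 (tables), numpy 2.4.6 and, for plots, matplotlib 3.10.9.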

Additional observations from a re-analysis of the deposited data

How the results depend on the processing

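No paired analysis was possible because each group had 1 library, and for the same reason no library could be left out. The 9 genes kept the sign of their log2 ratio under each of the alternatives run, and the number at least 2-fold higher stayed at 0. The number at least 2-fold lower was 2 as reported, 1 with median centring or upper-quartile scaling, 5 with TPM rescaling and 5 at a 1.5-fold threshold. It was 3 with a pseudocount of 0.1 or 0.5 and for CPM with a prior of 0.5. The gene added there was TIMP3, at -1.23, -1.03 and -1.30. Of all expressed genes, 6.2% were lower as reported, 4.0% with median centring and 4.36% with upper-quartile scaling. The share was 14.5% with TPM rescaling (of 9664 genes) and 18.2% at a 1.5-fold threshold. With pseudocounts of 0.1 and 0.5 it was 12.6% and 9.21%, and for CPM 13.8%. Since the 9 were selected on this contrast, nothing is read from their counts beside these shares. The median log2 ratio of the 9 was -0.77 as reported, -0.95 with a pseudocount of 0.1, -1.13 with TPM rescaling and -0.95 for CPM with a prior of 0.5. Relative to the median of all expressed genes, which TPM rescaling moved to -0.47, it was -0.62 as reported and -0.66 with TPM.

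Over all expressed genes, 555 were at least 2-fold lower and 227 higher. A pseudocount of 0.1 gave 1129 and 469, a minimum of 5 FPKM 309 and 131, median centring 358 and 345, TPM rescaling 1405 and 107, CPM (prior count 0.5) 1239 and 505, and a 1.5-fold threshold 1631 and 757. Upper-quartile scaling gave 341 higher. The higher share of all calls was 29.03% as reported, 49.1% with median centring, 46.7% with upper-quartile scaling, 38.1% with the 5 small RNAs left out of the totals and 7.08% with TPM rescaling. With TPM rescaling, ST14, CD151, ADAM19, ADAM9, MMP17, PLG, SERPINB1 and SERPINB6 changed the sign of a log2 ratio that was within 2-fold; CD63 and VTN did so with median centring and upper-quartile scaling, and CD63 also without the 5 small RNAs. The cause was not tested. Depth limits PLAT, SERPINB5 and TIMP3 most, at 120 to 381 counts per library.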
